A study of Homo sapiens with 2 samples.

Results

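Integrins and laminins are the receptors and the matrix proteins through which epithelial cells hold to a basement membrane. Their genes were taken from the deposited count table as the protein-coding entries whose symbols name an integrin α subunit, an integrin β subunit or a laminin α, β or γ chain, and 37 of them are described here, of 58735 listed genes and 19951 listed protein-coding genes. Of these, 18 encode integrin α subunits, 8 encode integrin β subunits and 11 encode laminin chains. The rule used symbols and biotype only, and no measured value.

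The cells were PLC/PRF/5 (8024), a human hepatoma line also called Alexander cells and grown as an epithelial culture. MAEL WT was 1 library of these cells with no treatment, and MAEL KO was 1 library of cells in which CRISPR-Cas9 and an sgRNA had been aimed at MAEL, a cancer/testis gene. The methods describe knockout cells grown from sorted cells as single clones, so the MAEL KO library may stand for 1 clone, and a clonal difference, a culture difference and the knockout cannot be told apart. MAEL itself had 1 count in MAEL WT and 0 in MAEL KO, so the targeted transcript does not check the labels.

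An integrin is a dimer of 1 α and 1 β subunit that spans the plasma membrane, binds matrix outside the cell and connects to actin or keratin filaments inside it. The α subunit largely sets the ligand, and the known dimers fall into receptors for laminins, for collagens, for ligands with the RGD motif such as fibronectin and vitronectin, and for counter-receptors on leukocytes and endothelium. Laminins are cross-shaped trimers of 1 α, 1 β and 1 γ chain, named by their chain numbers, and they polymerize into the sheet on which a basement membrane is built. Hepatocytes in healthy liver face little laminin, whereas bile ducts, vessels and many hepatocellular carcinomas are lined by it.

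The libraries held 19904136 counts for MAEL WT and 20833332 for MAEL KO. Counts were brought to a common scale with TMM factors, and differences are given as log2 fold changes, MAEL KO over MAEL WT, after adding 1 to each normalized count. Intervals in brackets are exact 95% Clopper-Pearson intervals for counting error alone, and with 1 library per condition no difference has a replicate check or a p-value. A gene was carried into the comparison if either library gave it 10 counts or more. It is called past the threshold at a log2 fold change beyond 2 in either direction. The study's methods use this value together with a cutoff on the adjusted p-value, which was not applied here. Reads from fewer cells and reads from less RNA per cell cannot be told apart in such bulk libraries.

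Of the 37 genes, 29 entered the comparison. Of these, 25 were lower in MAEL KO and 4 were higher, 7 were past the threshold on the lower side and 0 on the higher side. Among all 17887 genes compared, 5.64% were past the threshold on the lower side, 2.16% on the higher side and 52% were below 0. Past a log2 fold change of 1 there were 14 lower genes and 1 higher gene of the 29, beside 16.5% and 10.2% of all genes. The median log2 fold change was -0.99 over the 29 genes and -0.04 over all genes. Calls were denser among genes with few counts. Of the 9 genes with 10 to 99 counts in their better-counted library, 4 were past the threshold on the lower side and 0 on the higher side, beside 12.4% and 3.44% of all such genes, and 8 were below -1, beside 31.5%. Of the 20 genes with at least 100 counts, 3 were past it on the lower side and 0 on the higher side, beside 2.35% and 1.54% of all such genes. Of the same 20, 6 were below -1 and 1 was above 1, beside 9.16% and 9.23%, and 16 were below 0, beside 45.8%. Their median was -0.44, and that of all genes with at least 100 counts was 0.07. A gene that entered only through its MAEL WT counts was more likely to be lower in MAEL KO, so these counts describe the genes and are no support for a direction.

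**Figure D1:**
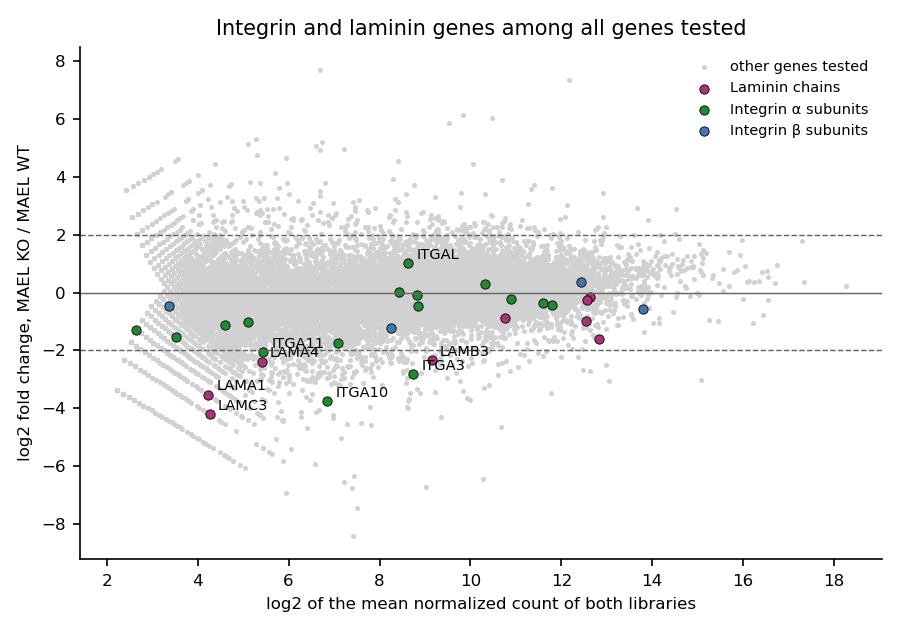
Each point is a gene, placed by the log2 of its mean normalized count (x axis) and by its log2 fold change (y axis, MAEL KO over MAEL WT), with dashed lines at 2 and -2. The laminin chains and integrin subunits past the lower line are labelled, and ITGAL, at 1.02, is the labelled gene above 0.

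Scaling bears most on the small differences. With library totals, many well-counted genes also moved beyond their counting intervals, such as LAMB1, from -1.59 to -1.87. Scaling by library totals moved the median of all genes by -0.27, from -0.04 to -0.31, and ITGAE then changed sign from 0.04 to -0.24. ITGA1, ITGB5 and ITGAL stayed above 0 under that scaling, at 0.02, 0.10 and 0.75.

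The laminin chains were the group with the lowest values. All 9 chains that entered the comparison were lower in MAEL KO, 4 of them past the threshold, beside 5.64% of all genes, and their median was -1.59. Of these 4, LAMA1, LAMA4 and LAMC3 had under 100 counts, where 12.4% of all genes were past it on the lower side. Of the 6 chains with at least 100 counts, 1 was past it, beside 2.35% of all such genes. The median of these 6 was -0.94, beside 0.07 for all such genes. By reads, the 11 chains together had 38013 counts in MAEL WT and 19108 in MAEL KO, a log2 ratio of normalized sums of -0.78. The difference was uneven across chain types. Deposited FPKM values divide counts by gene length and by library sizes that correspond to 21872531 and 18958459, which are not the count totals. In these values the β chains summed to 132 in MAEL WT and 52.2 in MAEL KO, or 0.394 times as much. The α chains summed to 30.7 and 24.7, or 0.805 times, and the γ chains LAMC1 and LAMC3 to 38.9 and 32.4, or 0.832 times. Relative to these γ chains, the β-chain FPKM was 3.397 times as high in MAEL WT and 1.61 times in MAEL KO, while the ratio for the α chains was 0.788 and 0.762.

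LAMB1 and LAMB2 encode the β chains of most basement membrane laminins. LAMB1 (chromosome 7, 107923799 to 108003255, minus strand, GRCh38) had 11665 counts in MAEL WT and 3350 in MAEL KO, 3.01-fold lower in MAEL KO and at a log2 fold change of -1.59 (-1.65 to -1.53). LAMB2 (chromosome 3, 49121114 to 49133118, minus strand) had 8533 and 3708 counts, a log2 fold change of -0.99 (-1.05 to -0.94). The order of these chains differed between the libraries, since LAMB1 was above LAMB2 in MAEL WT at 65.5 against 56.8 FPKM and below it in MAEL KO at 21.7 against 28.5 FPKM, with 95% Poisson intervals apart in both libraries. The other common chains were closer to 0. LAMC1, the γ chain of most laminins, had 7115 and 5163 counts, a log2 fold change of -0.25 (-0.30 to -0.20). LAMA5, the α chain of laminin-511 and laminin-521, had 7093 and 5554 counts, at -0.14 (-0.19 to -0.09). Their intervals lie apart from those of LAMB1 and LAMB2.

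LAMA3 and LAMB3 encode chains of laminin-332, the laminin of epithelial hemidesmosomes and of the invasive edge of many carcinomas. Both were lower in MAEL KO, and to a different degree. LAMA3 (chromosome 18, 23689443 to 23956222, plus strand) had 2428 counts in MAEL WT and 1141 in MAEL KO, a log2 fold change of -0.88 (-0.98 to -0.78). LAMB3 (chromosome 1, 209614870 to 209652466, minus strand) had 1014 and 174 counts, 5.04-fold lower in MAEL KO, at -2.33 (-2.57 to -2.10).

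The RefSeq promoter table gave 33 start sites for 26 of the 37 genes by symbol, in build GRCh38.p14. LAMA3 and LAMB3 are shown because they encode chains of the same trimer, and they are also the 2 genes with a match to the motif below. LAMB1 is shown because it had the largest difference in reads among the laminins, while LAMB3, LAMA4, LAMA1 and LAMC3 had larger fold changes. The 250 bases before the start site are printed 5′ to 3′ on the strand of the gene, with matches to the AP-1 motif TGANTCA in capitals. This motif reads the same on both strands and no matches overlapped. The LAMA3 window is chr18:23872770-23873019 on the plus strand, inside the listed span of the gene. The LAMB3 window is chr1:209651375-209651624 on the minus strand, the most downstream of 3 LAMB3 start sites. It is the only one of the 3 with a match, and the others are not printed. The LAMB1 window is chr7:108003162-108003411 on the minus strand.
LAMA3: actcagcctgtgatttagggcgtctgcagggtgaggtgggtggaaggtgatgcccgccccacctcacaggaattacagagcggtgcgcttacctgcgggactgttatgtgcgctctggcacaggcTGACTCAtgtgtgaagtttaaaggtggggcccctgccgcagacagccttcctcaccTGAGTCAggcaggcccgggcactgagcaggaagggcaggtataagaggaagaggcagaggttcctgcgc
LAMB3: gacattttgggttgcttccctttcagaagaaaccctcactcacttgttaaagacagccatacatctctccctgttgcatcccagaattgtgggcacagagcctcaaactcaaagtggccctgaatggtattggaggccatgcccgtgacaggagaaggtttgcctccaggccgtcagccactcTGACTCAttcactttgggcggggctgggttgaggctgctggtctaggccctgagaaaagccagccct
LAMB1: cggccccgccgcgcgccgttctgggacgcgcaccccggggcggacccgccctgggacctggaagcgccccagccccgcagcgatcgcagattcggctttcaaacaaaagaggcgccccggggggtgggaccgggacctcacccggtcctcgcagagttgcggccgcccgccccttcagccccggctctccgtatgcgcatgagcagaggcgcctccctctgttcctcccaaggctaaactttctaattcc

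The LAMA3 window held 2 matches, beginning 125 and 69 bases before the start, and the LAMB3 window held 1, beginning 67 bases before it. No match was found in the other 31 windows, which include the other LAMB3 start sites and the LAMB1 window. At least 1 match was thus held by 2 of the 33 windows, a share near the 6.57% of all 35116 promoter windows of this length. The GC box GGGCGG, read on both strands, was in 17 of the 33 windows and in 42.6% of all, and it occurred 4 times in the LAMB1 window and 1 time in each of the LAMA3 and LAMB3 windows. A match is a string of letters and not a measured binding site. ITGA3 and ITGB4 were not in the table.

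The remaining laminin chains were scarce. LAMA4, an α chain of vessel and muscle laminins, had 77 counts in MAEL WT and 12 in MAEL KO, a log2 fold change of -2.38 (-3.49 to -1.58). LAMC3, a γ chain, had 40 and 1 counts, a 34.6-fold ratio of normalized counts with a log2 interval of -10.45 to -2.55. LAMA1, the α chain of laminin-111 in early embryos, had 38 and 2 counts, a 16.4-fold ratio with a log2 interval of -7.13 to -2.09. These 3 genes were at most at 0.304 FPKM in MAEL WT, and their intervals are wide. LAMB4 had 9 and 0 counts and LAMA2, the α chain of muscle laminin, had 1 and 3, too few to enter the comparison.

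**Figure D2:**
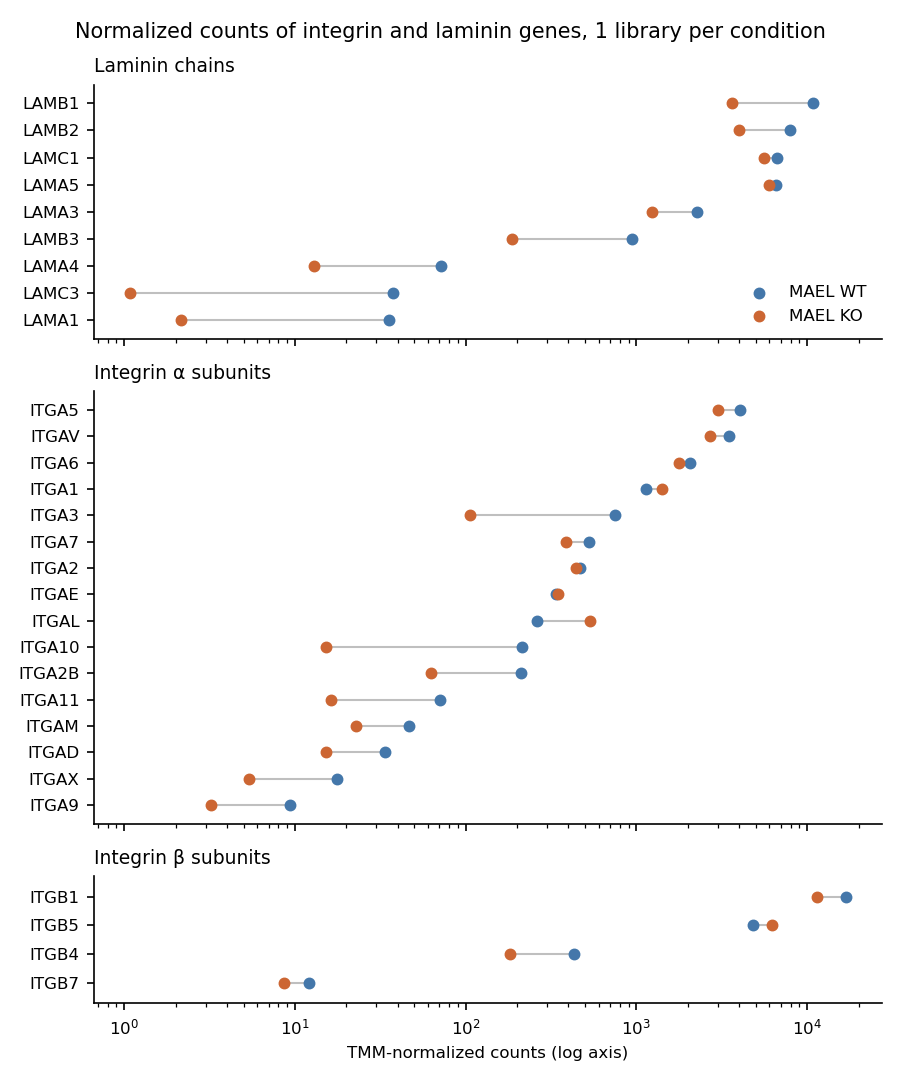
TMM-normalized counts (x axis, log scale) of the 29 genes in MAEL WT (blue) and MAEL KO (orange), in separate panels for laminin chains, integrin α subunits and integrin β subunits. All 9 laminin chains lie lower in MAEL KO.

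Chain levels set side by side give the trimers whose parts were all present. Of 9 known trimers considered, 7 had every chain above 3 counts in MAEL WT and 6 in MAEL KO. Laminin-111, through LAMA1, was the trimer above it in MAEL WT alone. In laminin-511 and laminin-521 the scarcest chain was LAMA5 in both libraries, at 22.7 FPKM in MAEL WT and 20.5 in MAEL KO, and these were the trimers with the highest limiting level. LAMA5 made up 74.0% of the α-chain FPKM in MAEL WT and 83.1% in MAEL KO, while LAMC3 stood at 0.241 FPKM in MAEL WT and 0.00695 in MAEL KO beside 38.7 and 32.4 for LAMC1. Transcript levels do not measure assembled protein.

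Among the integrins that bind laminins, ITGA3 differed most. ITGA3 pairs with ITGB1 as the main epithelial receptor for laminin-332 and laminin-511. ITGA3 (chromosome 17, 50055968 to 50090481, plus strand) had 807 counts in MAEL WT and 98 in MAEL KO, 7.12-fold lower in MAEL KO and at a log2 fold change of -2.82 (-3.15 to -2.53). ITGB4, which pairs with ITGA6 in hemidesmosomes, had 463 and 169 counts, a log2 fold change of -1.24 (-1.51 to -0.99). ITGA6 had 2210 and 1641 counts, at -0.22 (-0.31 to -0.13), and ITGA7, a laminin receptor best known from muscle, had 568 and 357, at -0.46 (-0.65 to -0.27). The intervals of ITGA3 and ITGB4 lie apart from each other and from those of ITGA6 and ITGA7, which overlap. The makeup of the laminin-binding α subunits differed with them. ITGA3 supplied 16.2% of their summed FPKM in MAEL WT and 3.15% in MAEL KO, ITGA6 supplied 66.4% and 79.2%, and ITGA7 supplied 17.5% and 17.7%.

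The collagen receptors differed among themselves. ITGA1 and ITGA2, the widely expressed collagen-binding subunits, were close to level between the libraries. ITGA1 had 1228 counts in MAEL WT and 1307 in MAEL KO, a log2 fold change of 0.30 (0.19 to 0.41). ITGA2 had 499 and 410 counts, at -0.07 with an interval of -0.27 to 0.12 that holds 0. ITGA10 and ITGA11, known from cartilage and from fibroblasts, were far lower. ITGA10 (chromosome 1, 145891208 to 145910189, minus strand) had 230 and 14 counts, 14.2-fold lower in MAEL KO, at -3.74 (-4.72 to -3.05). ITGA11 had 76 and 15 counts, at -2.06 (-3.04 to -1.32), and its call was lost with a prior count of 5, at -1.84, and with the ratio of deposited FPKM values, at -1.99. ITGA10 went from 21.1% to 1.76% of the FPKM of the 4 collagen-binding subunits. ITGA1 and ITGA2 lie 30.1 kb apart on chromosome 5, and ITGA1 shares 475 exonic bases on the same strand with PELO, which had 940 and 905 counts.

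The receptors for fibronectin and vitronectin were the most abundant α subunits and stood slightly below 0. ITGA5, the α subunit of the classical fibronectin receptor, had 4349 and 2795 counts, a log2 fold change of -0.43 (-0.50 to -0.36). ITGAV, which pairs with several β subunits to bind vitronectin and fibronectin, had 3761 and 2512 counts, at -0.37 (-0.45 to -0.30). The intervals of ITGA5 and ITGAV overlap. ITGA2B, the α subunit of the platelet fibrinogen receptor, had 225 and 58 counts, at -1.73 (-2.19 to -1.32), and with total counts it reached -2.0, just past the threshold. Its partner ITGB3 had 2 and 1 counts. ITGA8, which binds nephronectin, was listed at 0 in both libraries.

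The β subunits differed in sign. ITGB1, the common partner of 12 α subunits, was the most abundant gene of the set in both libraries, with 18170 and 10582 counts and a log2 fold change of -0.57 (-0.60 to -0.53). ITGB5, which pairs with ITGAV in a vitronectin receptor, had 5142 and 5759 counts, at 0.37 (0.32 to 0.43). These intervals lie apart, and ITGB5 went from 0.264 to 0.507 times the FPKM of ITGB1. As shares of all β-subunit FPKM, ITGB1 went from 77.6% to 65.6% and ITGB5 from 20.5% to 33.3%. ITGB1 stood at 138 FPKM in MAEL WT beside a sum of 78.4 over its 12 α partners, and at 92.9 beside 59.0 in MAEL KO. ITGB6, an epithelial partner of ITGAV, was listed at 0 in both libraries, and ITGB8, another partner of ITGAV, had 2 and 8 counts.

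**Figure D3:**
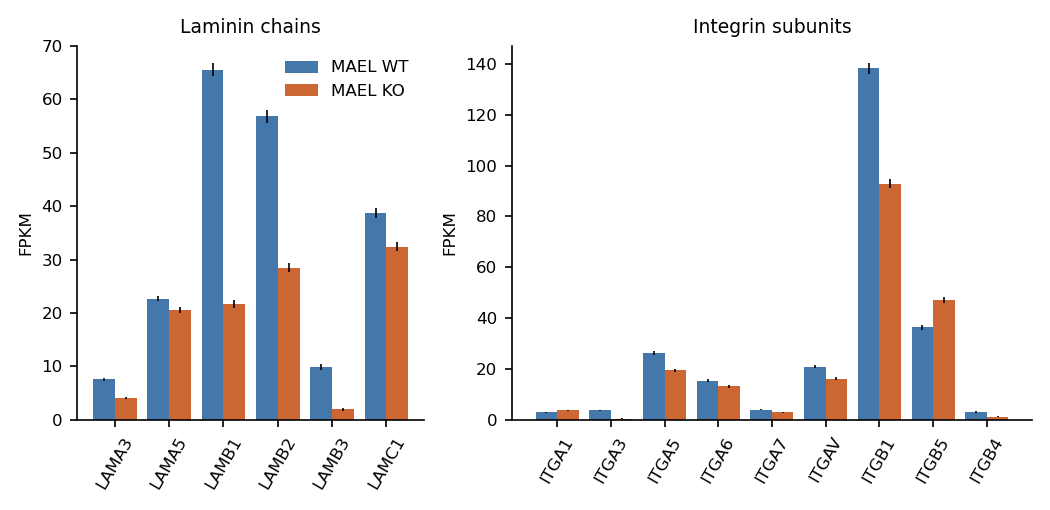
Deposited FPKM values (y axis, from 0) of selected laminin chains and integrin subunits in MAEL WT (blue) and MAEL KO (orange), with 95% Poisson intervals of the counts as error bars. LAMB1 and LAMB2 lie above LAMC1 in MAEL WT and below it in MAEL KO, and ITGB5 is the β subunit that is higher in MAEL KO.

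Of the integrin α subunits of leukocytes, ITGAL stood at 1.99 FPKM in MAEL WT and 4.03 in MAEL KO, and ITGAE at 2.49 and 2.55. For comparison, ITGA1 was at 3.02 and 3.71. ITGAM, ITGAX and ITGAD were at most at 0.402 FPKM, and the β partners of these subunits had few reads. ITGAL, the α subunit of the lymphocyte receptor for ICAM proteins, had the highest log2 fold change of the 29 genes, with 281 counts in MAEL WT and 495 in MAEL KO, a log2 fold change of 1.02 (0.81 to 1.24), short of the threshold. ITGAE, which binds E-cadherin, had 363 and 322 counts, at 0.04 (-0.18 to 0.26). ITGAM, ITGAX and ITGAD lie in a row on chromosome 16, with gaps of 22.2 and 10.3 kb. ITGAM had 50 and 21 counts, ITGAX 19 and 5 and ITGAD 36 and 14, with log2 fold changes of -1.01, -1.55 and -1.10. All 3 neighbours were thus lower in MAEL KO and none was past the threshold. ITGB2, the β partner of ITGAL, ITGAM, ITGAX and ITGAD, had 9 and 3 counts. ITGB7, the partner of ITGAE, had 13 and 8, at -0.45 (-1.97 to 0.89), but 42.1% of its exonic bases overlap ZNF740 on the opposite strand, with 1062 and 784 counts, and the sources do not state that counting used the strand. ITGA9 had 10 and 3 counts, at -1.29 with an interval that holds 0, beside 44 and 17 counts for the overlapping antisense gene ITGA9-AS1, and ITGA4 was listed at 0 in both libraries. A count of 0 allows up to 0.151 CPM in MAEL WT and 0.144 CPM in MAEL KO.

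Markers of other cell types are given beside these values, though both libraries are labelled as the same cultured line. Of 5 leukocyte markers, 1 reached 10 counts, LYZ with 1251 and 737. PTPRC, the common leukocyte antigen, had 3 and 0 counts and CD3E had 0 in both libraries. The 5 markers summed to 1265 and 747 counts, nearly all from LYZ, so the sum is no measure of leukocytes. Of 4 platelet markers, PPBP and GP9 were at 0 and the sum was 137 and 97 counts. Of 6 fibroblast and stellate cell markers 3 reached 10 counts, COL1A1 with 92 and 11, PDGFRB with 122 and 29 and COL3A1 with 54 and 136, ACTA2 was at 0, and the sum was 274 and 176. Whether other cell types had a part in the differences of ITGAL, ITGA11 and LAMA4 was not tested. Of 4 endothelial markers, PECAM1 with 348 and 392 counts and CDH5 with 4 and 15 reached 10, while VWF and KDR had 1 and 0 each. All 7 hepatocyte markers were present and higher in MAEL KO, from a sum of 227003 to 459827 counts, with ALB at 59 and 8550 and TTR at 20 and 155. The epithelial keratins KRT8 and KRT18 had 12248 and 23308 and 8981 and 10320 counts, whereas KRT19 had 13 and 1 and EPCAM 15 and 0.

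**Figure D4:**
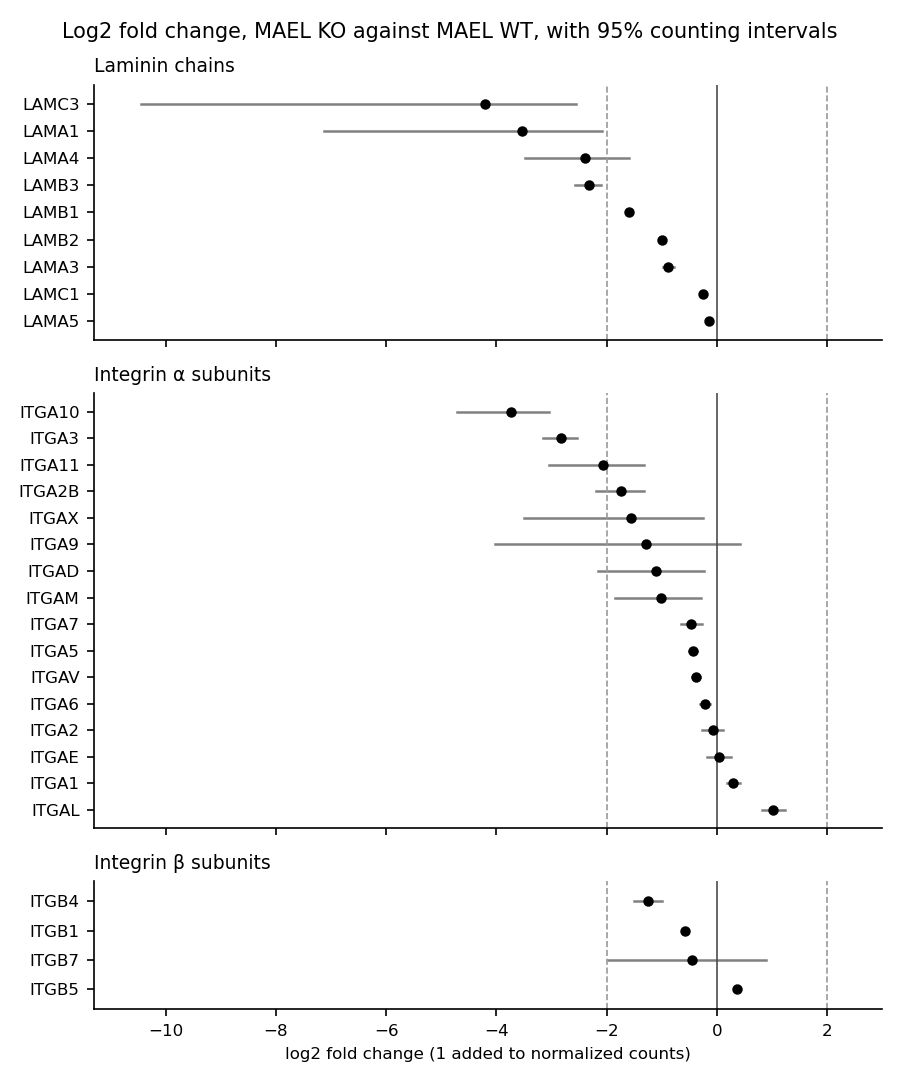
Log2 fold change (x axis, MAEL KO over MAEL WT) for the 29 genes, with 95% Clopper-Pearson counting intervals as bars and dashed lines at 2 and -2. ITGAL, ITGB5 and ITGA1 are the genes whose intervals lie above 0.

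Ranked by level per length, ITGB1 was first in both libraries. In MAEL WT it was followed by LAMB1 at 65.5 FPKM, LAMB2 at 56.8, LAMC1 at 38.7 and ITGB5 at 36.5. In MAEL KO it was followed by ITGB5 at 47.1 FPKM, LAMC1 at 32.4, LAMB2 at 28.5 and LAMB1 at 21.7. The first 11 genes of MAEL WT had Poisson intervals apart from their next neighbour, and ITGA7 and ITGA3 were the first pair to overlap. In MAEL KO, LAMB1 and LAMA5, and LAMA5 and ITGA5, could not be told apart by counting error. Of 28 pairs of neighbours in each order, 14 overlapped in MAEL WT and 16 in MAEL KO, nearly all of them at low FPKM. ITGA3 went from rank 13 to 19 and LAMB3 from rank 10 to 16, while ITGAL went from rank 18 to 11.

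Of the 24 known integrin dimers, 13 had both subunits among the 29 genes, and the scarcer subunit was the same in both libraries for all 24. Both subunits were above 3 counts in 17 dimers in MAEL WT and 13 in MAEL KO. The dimers above this level in MAEL WT alone were the 4 that contain ITGB2 and the dimer of ITGA9 with ITGB1, where the scarcer subunit had 10 counts or fewer in MAEL WT, and the dimer of ITGAV with ITGB8 was above it in MAEL KO alone, at 8 counts. In the dimers with ITGB1 the α subunit was the scarcer partner throughout, and in the dimer of ITGAV with ITGB5 it was ITGAV, at 20.9 and 16.1 FPKM.

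The ligands of the receptors were read from lists of known partners. Of 17 collagen genes that make up ligands of ITGA1, ITGA2, ITGA10 and ITGA11, 10 entered the comparison, 3 were past the threshold on the lower side and 0 on the higher side, beside 5.64% and 2.16% of all genes, and the median was -1.22. Of the 3, COL6A3 and COL1A1 had under 100 counts, where 12.4% of all genes were past it on the lower side. The 3 lower genes were COL6A3, with 31 and 3 counts, COL6A2, a chain of the same microfibril collagen, with 905 and 113 counts and a log2 fold change of -2.78, and COL1A1, with 92 and 11 counts, at -2.75. COL6A1 had 1553 and 597, at -1.17. COL5A2, at 0.70, and COL3A1, at 1.52, were higher in MAEL KO. The receptor subunits ITGA1 and ITGA2, at 0.30 and -0.07, stood above the median of these ligands. ITGA10 and ITGA11, at -3.74 and -2.06, stood below it. This median leaves out ligand chains with too few counts to enter. COL4A1 had 1 and 5 counts, COL4A2 6 and 4, COL2A1 9 and 4 and COL1A2 1 and 1. Of collagen IV, COL4A5 and COL4A6 entered, at -1.19 and -1.25.

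Some ligands of the RGD receptors were abundant in both libraries and others were near 0 counts. Of 29 such matrix genes, 16 entered the comparison, with a median of -0.18. Past the threshold there were 0 on either side, beside 5.64% of all genes on the lower side and 2.16% on the higher side. FN1, which encodes fibronectin, the ligand of ITGA5 with ITGB1, had 75727 and 56185 counts, a log2 fold change of -0.22, and VTN, which encodes vitronectin, the ligand of ITGAV with ITGB5, had 5509 and 4314 counts, at -0.14. Of the fibrinogen chains, FGB was at 1.41, FGA at 0.39 and FGG at 0.33. MFGE8, an RGD protein that bridges cells to ITGAV receptors, was at -1.77 and TNXB, a tenascin, at -1.92. With library totals as the scale, these 2 genes were past the threshold. Of 14 cell-surface ligands, 9 entered and 0 were past the threshold, beside 5.64% and 2.16% of all genes. VCAM1, the ligand of ITGA4 and ITGA9, had 110 and 377 counts, at 1.98, beside 0 counts for ITGA4 in both libraries. ICAM1, a ligand of ITGAL, had 4723 and 3499 counts, at -0.22, and ICAM5 was at -1.39. CDH1, the ligand of ITGAE, was at 0.60.

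Proteins that tie laminin into the basement membrane lay on both sides of 0. Of 15 such genes 12 entered the comparison, 2 were past the threshold on the lower side, beside 5.64% of all genes, and the median was -0.02. HSPG2, which encodes perlecan, had 3883 and 564 counts, a log2 fold change of -2.57 (-2.70 to -2.45), and NTN4, a netrin that binds laminin γ chains, had 146 and 20, at -2.60. NID1, the nidogen that links laminin to collagen IV, had 4141 and 4341 counts, at 0.28, FRAS1 was at 0.27 and NTN1 was at 1.64. The intervals of HSPG2 and NTN4 overlapped that of LAMB3, and NID1 and AGRN, the latter at 0.18, lay above LAMC1, the chain that nidogen binds.

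Laminin receptors other than integrins lay on both sides of 0. Of 15 listed, 13 entered the comparison, 8 were higher, 5 were lower and the median was 0.43. Past the threshold on the lower side was 1, DMD, at -2.21, beside 5.64% of all genes. On the higher side there were 0, beside 2.16%. DAG1, which encodes dystroglycan, had 3583 and 4744 counts, a log2 fold change of 0.62 (0.55 to 0.68). Of the syndecans, heparan sulfate coreceptors of laminin, SDC1, SDC2 and SDC4 were at 0.70, 1.64 and 0.66, and SDC3 was at -0.12 (-0.25 to 0.01). GPC1, a glypican, had 270 and 68 counts, at -1.77, and SGCB, a sarcoglycan of the dystroglycan complex, had 135 and 57, at -1.02. BCAM, a receptor for LAMA5, was at 0.34. RPSA was at 1.48, but it also encodes a ribosomal protein and has many processed copies in the genome, so its count is uncertain. For comparison, the integrin α subunits of the laminin receptors ranged from -2.82 to -0.22.

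The machinery inside the cell lay on both sides of 0. Of 23 integrin activators and adaptors, 21 entered the comparison, with a median of 0.26. Past the threshold there was 1 gene on each side, beside 5.64% of all genes on the lower side and 2.16% on the higher side. TNS1, a tensin, was the higher gene, with 102 and 619 counts and a log2 fold change of 2.80, and LIMS2 was the lower one, with 48 and 9 counts, at -2.10 (-3.42 to -1.16), a call that was lost with a prior count of 5. FERMT2, a kindlin that activates integrins through the β tail, was at 1.45 and LIMS1 at 1.39, while TLN1, which encodes talin, was at 0.19 and FLNA, which encodes filamin A, was at -1.37. Of 24 genes of focal adhesion signalling, 23 entered, with a median of -0.06. Past the threshold on the lower side was 1, FYN, at -2.75 on 45 and 5 counts, beside 5.64% of all genes. LIMS2 and FYN had under 100 counts, where 12.4% of all genes were past it on the lower side. PTK2, the focal adhesion kinase, was at 0.42, SRC was at -1.28, NEDD9, a docking protein of the same kinases, was at 1.21, TRIP6 was at 0.93 and VCL, which encodes vinculin, was at 0.80. Of 10 tetraspanins and hemidesmosome genes, 9 entered, with a median of -0.18. Past the threshold there were 0 on either side, beside 5.64% and 2.16% of all genes. CD82, a tetraspanin, had 305 and 91 counts, at -1.52, and CD9, another, had 359 and 479, at 0.62. PLEC, the plakin that holds ITGB4 to keratin, was at 0.39. DST, of the same list, had 4721 and 2704 counts, at -0.59 (-0.66 to -0.53). CD151, the tetraspanin that binds ITGA3 and ITGA6, was at -0.18. For comparison, ITGA3 was at -2.82 and ITGB4 at -1.24.

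**Figure D5:**
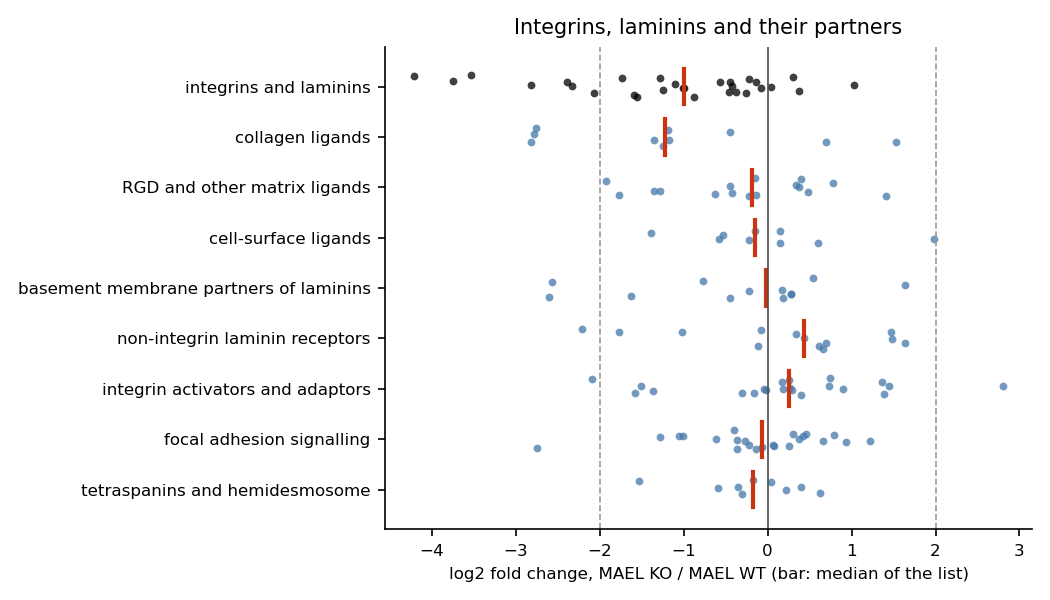
Log2 fold change (x axis, MAEL KO over MAEL WT) for the integrin and laminin genes (black) and for 8 lists of their partners (blue), each point a gene and each red bar a list median. The integrin and laminin genes and the collagen ligands have medians of -0.99 and -1.22, and the other 7 medians lie between -0.18 and 0.43.

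Over the 8 lists together, 113 of 146 genes entered the comparison, 8 were past the threshold on the lower side and 1 on the higher side, beside 5.64% and 2.16% of all genes, and the median was -0.06. Overlaps with other genes touch few of the integrin and laminin values above. Apart from ITGB7, the members that entered the comparison shared at most 10.3% of their exonic bases with another gene. LAMB1 shared 70 bases with DLD on the opposite strand, and LAMA5 shared 244 with ADRM1. ITGB1-DT, a non-coding RNA that begins near ITGB1 on the opposite strand and shares 42 exonic bases with it, had 76 and 12 counts.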

How the data were processed

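RNA of 1 MAEL WT and 1 MAEL KO sample was sequenced on a HiSeq platform. The authors deposited read counts per gene, whole numbers without normalization, and FPKM values, which the authors scaled by listed gene length and by library sizes that correspond to 21872531 and 18958459. The processing notes name HISAT2 2.0.5 and featureCounts 1.5.0-p3, and whether strand was used is not given in the sources used here. The labels name hg19, but all 37 genes of interest have the GRCh38 coordinates and exon lengths of GENCODE 29.

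Counts were scaled by TMM in edgeR 4.0.16 (DESeq2 1.42.0 for other size factors, R 4.3.3), and fold changes, intervals and plots were made with SciPy 1.17.1, NumPy 2.4.6, pandas 2.3.3 and matplotlib 3.10.9 under Python 3.11.15. The steps were tested on simulated data. With 1 to 3 counts in 1 library the ratio and its interval are given. The common scale of normalized counts is the average of both effective library sizes. The intervals and floors hold for counting error alone, as PCR copies of 1 molecule could not be told from separate molecules. No test was run, since neither condition had a second library. The genes, partner lists, markers and motifs were chosen with earlier results of these data known, and 1 gene of the 38 that the symbols select and 1 marker are not reported here. Named are all genes of the set and, from each partner list, genes among the 3 with the largest fold changes in each direction, though not all of them, and binding partners or laminin receptors. AGRN, FRAS1, SDC3, COL6A1, COL4A1, COL4A2, COL4A5, COL4A6, COL2A1, COL1A2, FGA, FGG, PTK2, FLNA, TLN1 and CD151 were named after their values were seen. Overlapping, antisense and promoter data come from GENCODE 29 and RefSeq.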

Additional observations from a re-analysis of the deposited data

How the results depend on the processing

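With 1 library per condition, leaving out a library was not possible. No paired analysis was possible because the groups share no more than 1 replicate number. Of the integrin and laminin genes, 7 were past the threshold on the lower side and 0 on the higher side. The lower count was 7 with DESeq2 size factors and a prior count of 0.1, beside 5.64% and 6.57% of all genes. It was 8 with total counts and without a count filter, beside 7.32% and 5.9%. With a prior count of 5 and the FPKM ratio with 0.01 added it was 6, beside 2.87% and 6.05%. The FPKM ratio is no independent check of scaling, since its median over all genes, -0.042, equalled that with DESeq2 size factors. It was 3 for genes with at least 100 counts, where fewer genes enter, beside 2.35% of all such genes. At a threshold of 1 there were 14 lower and 1 higher, where 16.5% and 10.2% of all genes were past it. Over the partner lists the 8 lower genes became 4 with at least 100 counts, beside the same 2.35%. They became 27 lower with 12 higher at a threshold of 1. Their median moved from -0.06 to -0.34 with total counts, which moved all genes by -0.27. The median of the integrin and laminin genes ranged from -1.27 with total counts to -0.44 for genes with at least 100 counts. Of 145 values of single genes under 5 alternatives, 128 stayed within their counting interval and 17 moved beyond it. All 17 arose with total counts, so under that scaling 17 of the 29 genes left their interval. Called genes lie beyond 2, so shifts of this size could not change their sign, and 0 did. ITGAE, which was not called, changed sign with total counts.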
